A study of Mus musculus with 14 samples.

Results

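A set of 9 chemokine ligand genes made by these progenitor lines is described, Ccl2, Ccl3, Ccl4, Ccl5, Ccl6, Ccl8, Ccl9, Cxcl2 and Cxcl10, out of 50686 genes in the count files. They were selected on their measured levels in these same libraries, so their presence is a description and not a result. All 9 passed the low-count filter, as did 14512 genes in all. A further 32 chemokine ligand genes were listed by family membership, of which 31 were in the files and 13 passed the filter, so the 9 are not all the ligands with reads.

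The libraries came from HPC-LSK cells, cultured mouse haematopoietic progenitor lines of the C57BL/6N background. The lines were either wild type (WT) for Cdk6, a kinase of the cell cycle that also acts in transcription, or knockout (KO) for it. The untransformed lines received the cytokines IL-6 (12.5 ng/ml) and SCF (2%) in their medium, and lines carrying BCR-ABL p210, the fusion kinase of chronic myeloid leukaemia, were grown without cytokines according to the growth protocol, so that transformation and medium cannot be told apart. However, each p210 sample is also tagged SCF in its description, which the labels do not explain, so whether those cultures saw SCF is not settled. The 4 groups were WT untransformed (n = 4), KO untransformed (n = 3), WT p210 (n = 3) and KO p210 (n = 4), and the labels do not say how many animals the lines came from. Comparing KO with WT within each state, and p210 with untransformed within each genotype, asks how loss of Cdk6 and transformation relate to the ligands these cells make.

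Chemokines are small secreted proteins that steer leukocytes through G-protein-coupled receptors. The CC ligands Ccl2 and Ccl8 belong to the monocyte chemoattractant family, and Ccl3, Ccl4, Ccl5, Ccl6 and Ccl9 to the macrophage inflammatory protein branch. Ccl6 and Ccl9 are rodent ligands of Ccr1 made in bulk by myeloid cells, Ccl3 and Ccl4 are inflammatory ligands that draw macrophages, Cxcl2 draws neutrophils through Cxcr2, and Cxcl10 is an interferon-induced ligand of Cxcr3. Several of them are textbook targets of NF-kB, a transcription factor held in check by the inhibitor encoded by Nfkbia.

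The CC members lie in 1 region of chromosome 11 (GRCm38, gene spans as in the files). Ccl2 spans chr11:82035571-82037453 and Ccl8 chr11:82115185-82116799 on the plus strand, with Ccl7, Ccl11 and Ccl12 between them. Ccl5 (chr11:83525778-83530518), Ccl9 (chr11:83572919-83578636), Ccl6 (chr11:83587882-83593087) and Ccl3 (chr11:83647844-83649355) follow on the minus strand, and Ccl4 (chr11:83662584-83664683) on the plus strand. Cxcl2 (chr5:90903871-90905938, plus strand) and Cxcl10 (chr5:92346638-92348889, minus strand) lie on chromosome 5. Promoters were taken from RefSeq (GRCm38.p6), which held 6 of the 9 members. The 250 bases before the annotated start are shown for 3 of them because Cxcl2 and Ccl3 varied together between libraries of a group, and Cxcl10 is the interferon-induced member. Capitals mark matches to the NF-kB consensus, and in Cxcl10 also the interferon-response core, which was searched as GAAA, 2 bases of any kind, then GAAA.
Cxcl2, chr5:90903649-90903898, plus strand: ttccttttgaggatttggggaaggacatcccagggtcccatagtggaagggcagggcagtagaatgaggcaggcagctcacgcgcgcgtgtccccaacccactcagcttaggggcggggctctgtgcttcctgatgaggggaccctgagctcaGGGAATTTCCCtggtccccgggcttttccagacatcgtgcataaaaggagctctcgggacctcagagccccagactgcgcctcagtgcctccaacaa
Cxcl10, chr5:92348890-92349139, minus strand: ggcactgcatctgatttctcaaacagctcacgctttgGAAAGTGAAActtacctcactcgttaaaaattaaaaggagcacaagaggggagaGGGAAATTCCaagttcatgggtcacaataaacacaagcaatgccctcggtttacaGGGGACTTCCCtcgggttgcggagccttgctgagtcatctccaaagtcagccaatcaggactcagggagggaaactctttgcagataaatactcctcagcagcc
Ccl3, chr11:83649379-83649628, minus strand: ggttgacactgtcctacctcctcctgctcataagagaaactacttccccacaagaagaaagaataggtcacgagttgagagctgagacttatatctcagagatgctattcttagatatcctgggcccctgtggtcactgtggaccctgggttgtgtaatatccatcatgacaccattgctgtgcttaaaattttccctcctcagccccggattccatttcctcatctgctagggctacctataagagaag
The Cxcl2 window held the NF-kB letters once on each strand, in 2 overlapping matches between 97 and 87 bases before the start. Cxcl10 held 4 matches, 3 of which overlapped one another, and 1 interferon-response core. Ccl9 held 1 NF-kB match, and none was found in the windows of Ccl3, Ccl6 and Ccl8. Over 32851 promoters of the same length, searched on both strands, 7.25% held the NF-kB consensus and 2.98% the interferon-response core. Neighbours Ccl6 and Ccl9 shared 36 of 40 bases in a stretch that spans the start of Ccl6 and lies just after the start of Ccl9 (chr11:83593073-83593112 and chr11:83578588-83578627), although their 300-base windows were only 46.9% identical end to end.

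Total counts per library ran from 20270348 to 50303271. Cdk6 was 970 to 1304.5 CPM (counts-per-million of gene counts, scaled with TMM factors) in WT untransformed, 236 to 271 in KO untransformed, 576 to 606 in WT p210 and 163 to 577 in KO p210. The highest KO p210 value, 577 CPM in the library labelled KO p210 replicate 2, lay inside the WT p210 range, so directions drawn from that library rest on its label. WT untransformed replicate 3 also stood apart, with the mast cell protease genes Mcpt4 at 1293, Cma1 at 777 and Tpsb2 at 959 CPM, against at most 41.5, 18.0 and 22.0 in any other library. The 12 progenitor markers summed to between 1575 and 3249 CPM in each library, whereas the 8 B cell markers summed to at most 13.95 CPM. The sum does not stand for each marker: Hoxa9 had 0 counts in WT p210 replicate 3 and KO p210 replicate 1. Of the 12, p210 called 1 higher and 4 lower in WT, and 1 higher and 6 lower in KO. The shares of all genes were 21.9% and 17.6% in WT, and 19.2% and 18% in KO. Each library's description also carries 1 of 2 number codes, the first on replicates 1 and 2 and the second on replicates 3 and 4, whose meaning is not settled. A second sequencing run was marked for WT untransformed replicates 2, 3 and 4, KO untransformed replicate 3, and KO p210 replicates 2 and 4. No WT p210 library had one, so the run partly tracked the state in WT. In these bulk libraries, fewer cells of a type and less RNA per cell cannot be told apart.

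**Figure D1:**
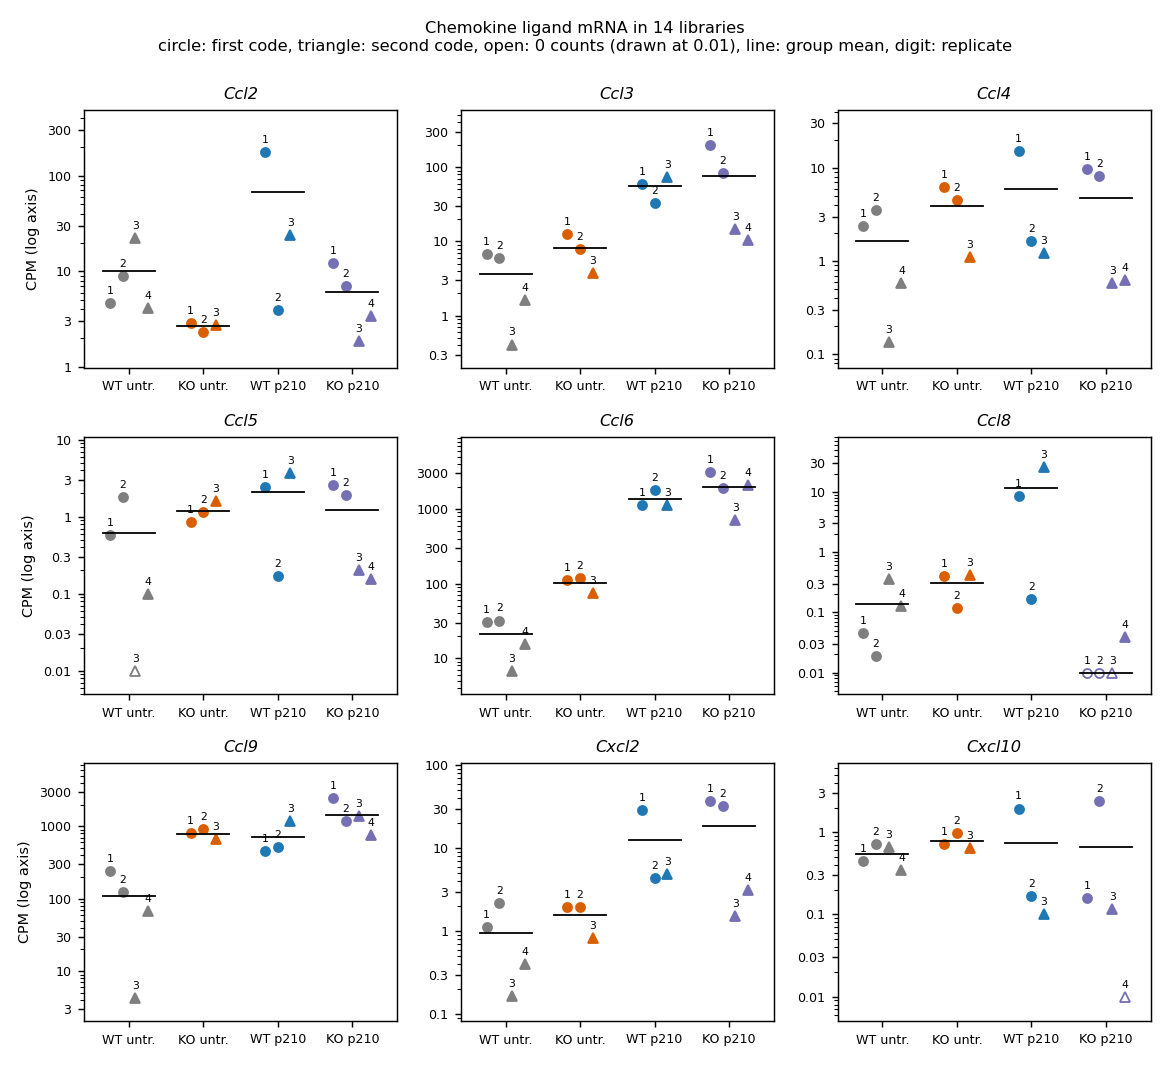
Level of the 9 ligand genes in each of the 14 libraries, in CPM on a log axis, grouped along the x axis by genotype and state. Each point is 1 library (circles carry the first code, triangles the second, open symbols have 0 counts and are drawn at 0.01), digits are replicate numbers and lines are group means. Ccl6 is at 721 or more in each p210 library and at 118 or less in each untransformed one, and Ccl8 is above 1 CPM only in WT p210 replicates 1 and 3.

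Ccl6 and Ccl9, both made by myeloid cells, separated the untransformed genotypes. In WT untransformed replicates 1 to 4, Ccl6 was at 30.9, 32.0, 6.72 and 15.5 CPM. In KO untransformed it was at 112, 118 and 74.2 CPM, so every KO library lay above every WT library. The fitted difference was 2.25 ± 0.53 on the log2 scale (SE), 4.76-fold, with an adjusted p of 0.0184 in edgeR's quasi-likelihood test. Ccl9 was at 245, 123, 4.25 and 67.4 CPM in WT untransformed and at 802, 911 and 669 in KO untransformed, again without overlap. Its difference was 2.85 ± 0.87 (7.23-fold, adjusted p = 0.0460 in edgeR), close to the threshold.

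These were the 2 of 9 members called higher in KO untransformed, and none was called lower. Of all genes tested 8.73% were called higher and 6.5% lower, and with members picked on their levels nothing is read from the comparison of these shares. The members' median difference was 1.13 on the log2 scale, beside -0.02 for all genes tested. The Ccl6 call was lost without WT untransformed replicate 4, KO untransformed replicate 1 or KO untransformed replicate 2 (2.10 to 2.15, adjusted p 0.0574 to 0.0830), and with the second code alone (2.71, adjusted p = 0.282). The Ccl9 call was lost without any of WT untransformed replicates 2 and 4, KO untransformed replicates 1, 2 and 3, WT p210 replicates 1 and 2, and KO p210 replicates 2 and 3 (adjusted p up to 0.140), and its difference was 3.58 without WT untransformed replicate 1. It was also lost in the fits of those 2 groups alone (adjusted p = 0.0828), with no low-count filter (0.108), with the second run as a covariate (0.0649), with the replicate number as a block (0.0902), with the first code alone (2.21, 0.0567) and with the second code alone (4.195, 0.331). Without both libraries in doubt, WT untransformed replicate 3 and KO p210 replicate 2, the differences were 1.95 for Ccl6 (adjusted p = 0.0448 in edgeR) and 2.45 for Ccl9 (0.0386).

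The other 7 members had no called difference between the untransformed genotypes. Ccl3 was at 6.69, 6.06, 0.412 and 1.66 CPM in WT and 12.7, 7.88 and 3.77 in KO, which overlap (1.13 ± 1.01, adjusted p = 0.469 in edgeR). Ccl2 ran the other way, at 4.62, 8.85, 22.4 and 4.14 CPM in WT against 2.86, 2.35 and 2.77 in KO. Every KO library was below every WT library for Ccl2, but the difference did not pass (-1.91 ± 1.08, adjusted p = 0.242 in edgeR). Of the group's summed Ccl2, 56.0% came from WT untransformed replicate 3. Ccl4, Ccl5, Ccl8, Cxcl2 and Cxcl10 stayed at or below 6.18 CPM in both untransformed groups, with differences of 1.25 ± 1.26, 0.94 ± 1.30, 1.19 ± 1.24, 0.68 ± 1.14 and 0.51 ± 1.21.

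Markers of myeloid cells were high in the same KO libraries. The 14 monocyte and macrophage markers summed to 365 to 3187 CPM in WT untransformed and 9043 to 14537 in KO untransformed. Of the 14, 5 were called higher and none lower, beside 8.73% and 6.5% of all genes. Among the 5 was Lyz2, which encodes lysozyme (2.92 ± 0.68, adjusted p = 0.0180 in edgeR). Csf1r, the receptor of the macrophage growth factor, was at 16.1 to 210 CPM in WT and 432 to 714 in KO (2.48 ± 0.83, adjusted p = 0.0638). The 14 neutrophil markers summed to 107 to 7610 CPM in WT and 14776 to 19313 in KO, with none of the 13 tested called. In KO untransformed, Lyz2 held most of the monocyte sum (7474 to 11694 CPM) and Mpo most of the neutrophil sum (11571 to 14590 CPM). The lowest Ccl6 and Ccl9 in WT, in replicate 3, came with the lowest monocyte sum, 365 CPM, and the lowest neutrophil sum, 107 CPM. The part of these markers in the Ccl6 and Ccl9 differences was not tested.

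The transformed lines held far more Ccl6. It was at 1148, 1781 and 1133 CPM in WT p210 replicates 1 to 3, and at 3130.2, 1929, 721 and 2080.2 in KO p210 replicates 1 to 4. The lowest transformed library exceeded the highest untransformed one, KO untransformed replicate 2 at 118 CPM, so states did not overlap in either genotype. The p210 difference was 5.99 ± 0.60 in WT (63.7-fold, adjusted p = 3.86e-05 in edgeR) and 4.28 ± 0.62 in KO (19.4-fold, adjusted p = 0.000387). The WT call held under each of the alternatives run, and the KO call under each except the 6 libraries with the second code alone (adjusted p = 0.126). Between the transformed genotypes Ccl6 did not differ beyond the spread of the libraries (0.54 ± 0.52, adjusted p = 0.627).

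Ccl9 behaved differently from its neighbour. It was at 454, 512 and 1181 CPM in WT p210 and at 2467, 1189.9, 1395.5 and 753 in KO p210. The WT p210 libraries lay above all 4 WT untransformed libraries (2.70 ± 0.86, 6.52-fold, adjusted p = 0.0266 in edgeR). The KO p210 libraries overlapped KO untransformed, whose range was 669 to 911 CPM (0.87 ± 0.86, adjusted p = 0.458). The WT call was lost without WT untransformed replicate 2, WT untransformed replicate 4 or WT p210 replicate 3 (2.13 to 2.76, adjusted p 0.0519 to 0.0982), and its difference was 3.45 without WT untransformed replicate 1. With the cell line as a block, the WT difference was 3.00 with an adjusted p of 0.186. It was 1.38 with the first code alone (adjusted p = 0.0634), 5.02 with the second code alone (0.132) and 2.10 with the second run as a covariate (0.106), and the call was also lost from the 2 groups alone (0.0955) and with no low-count filter (0.0685). The genotype difference in p210 was 1.02 ± 0.86 (adjusted p = 0.565), with overlapping groups.

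Per transcript length, Ccl6 was below Ccl9 in 6 of 7 untransformed libraries and above it in 6 of 7 p210 libraries. In TPM, a level corrected for transcript length, the ratio of Ccl6 to Ccl9 was 0.188 to 0.238 in KO untransformed and 0.877 to 4.69 in KO p210. In WT it was 0.214, 0.443, 2.68 and 0.390 in untransformed replicates 1 to 4 and 4.28, 5.90 and 1.63 in p210 replicates 1 to 3. WT untransformed replicate 3, where Ccl9 was at 5.23 TPM and Ccl6 at 14.02 TPM, was the untransformed library above 1, and KO p210 replicate 3, at 0.877, the p210 library below 1. The differences between genotypes in the size of the p210 change were -1.71 ± 0.73 for Ccl6 (adjusted p = 0.331 in edgeR) and -1.83 ± 1.18 for Ccl9 (adjusted p = 0.498), neither of which passed.

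Summed over 40 ligand genes, chemokine mRNA came mostly from Pf4, platelet factor 4, in WT untransformed. Pf4 made up 85.9% to 95.9% of ligand TPM there and 52.0% to 67.5% in KO untransformed. Its share was 47.0% to 56.5% in WT p210 and 20.6% to 53.3% in KO p210. Ccl6 and Ccl9 together made up 4.39% ± 4.52 (SD, n = 4) of ligand TPM in WT untransformed and 33.1% ± 7.37 (n = 3) in KO untransformed, with no overlap between the groups' ranges of 0.199% to 10.3% and 27.1% to 41.4%. They made up 38.6% ± 6.80 (n = 3) in WT p210 and 61.0% ± 11.8 (n = 4) in KO p210. The sum of the 9 members was 99.8 to 425 TPM in WT untransformed, 916 to 1241 in KO untransformed, 3815 to 3963 in WT p210 and 2788 to 8418 in KO p210.

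**Figure D2:**
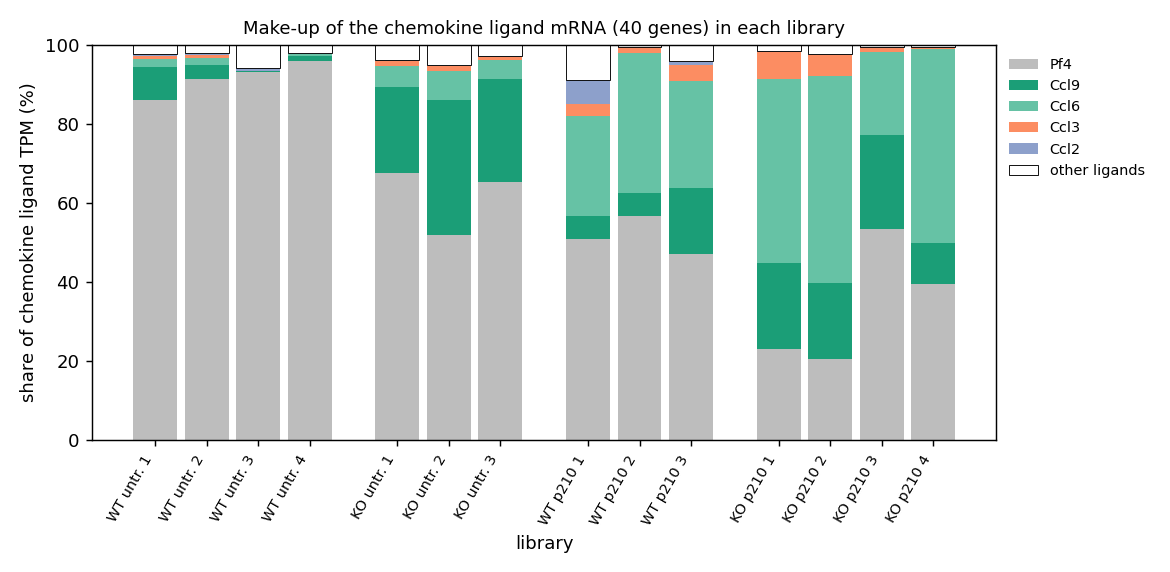
Share of each library's summed chemokine ligand TPM (y axis, percent) held by Pf4, Ccl9, Ccl6, Ccl3, Ccl2 and all other ligands, for the 14 libraries on the x axis. Grey Pf4 fills 85.9% or more of each WT untransformed bar, and the green Ccl6 and Ccl9 segments fill 44.97% to 71.4% of the KO p210 bars.

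Ccl3, which draws macrophages and is also known to restrain the cycling of stem cells, was higher in the transformed lines. It was at 59.0, 33.1 and 74.6 CPM in WT p210, all above the highest WT untransformed library at 6.69 CPM (3.92 ± 1.06, 15.1-fold, adjusted p = 0.0122 in edgeR). This call held without any single library (adjusted p up to 0.0370), and was lost with the second sequencing run as a covariate (3.05, adjusted p = 0.0742). It was 2.85 with the first code alone and 6.14 with the second, with the call kept in both. In KO p210 replicates 1 to 4, Ccl3 was at 196, 82.6, 14.6 and 10.6 CPM. Replicates 1 and 2 were thus well above replicates 3 and 4, and replicate 1 held 64.6% of the group's sum. The lowest KO p210 library was below the highest KO untransformed library, 12.7 CPM (3.24 ± 1.12, 9.42-fold, adjusted p = 0.0392 in edgeR). That call was lost without KO p210 replicate 1 (2.15), without KO p210 replicate 2, or without any 1 of the 3 KO untransformed libraries (adjusted p 0.0621 to 0.127), with the cell line as a block (2.98, adjusted p = 0.0823) in limma-voom (2.53, adjusted p = 0.118), with the second code alone (1.74, adjusted p = 0.302), and with no low-count filter (0.0966) or the 2 groups alone (0.0655). Without both libraries in doubt it was 3.19 (adjusted p = 0.0456 in edgeR).

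Cxcl2 was also higher in the transformed lines. It was at 28.8, 4.43 and 4.97 CPM in WT p210 and 36.8, 32.1, 1.51 and 3.12 in KO p210, against at most 2.17 in any untransformed library. WT p210 replicate 1 held 75.4% of its group's sum. The p210 difference was 3.71 ± 1.17 in WT (13.1-fold, adjusted p = 0.0258 in edgeR) without overlap, and 3.55 ± 1.27 in KO (11.7-fold, adjusted p = 0.0457) with overlap. In WT the call was lost without WT p210 replicate 1 (2.26, adjusted p = 0.147), without WT untransformed replicates 1, 3 or 4 each, and with the cell line as a block (3.49, adjusted p = 0.0513), as it was in limma-voom (3.77, adjusted p = 0.0920), and the difference was 4.55 without WT untransformed replicate 2. In KO it was lost without any 1 of the KO untransformed libraries, KO p210 replicates 1 or 2, or WT untransformed replicates 1 or 4 (adjusted p up to 0.141), in limma-voom (2.44, adjusted p = 0.232), with the second code alone (1.48, adjusted p = 0.334), and with library size scaling, no low-count filter, the 2 groups alone or the second run as a covariate (adjusted p 0.0503 to 0.108). The WT call was also lost with the second code alone (4.09, adjusted p = 0.0543), no low-count filter (0.0634) or the second run (0.114). Without both libraries in doubt the differences were 3.36 in WT (adjusted p = 0.0657 in edgeR) and 3.13 in KO (adjusted p = 0.0799).

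Ccl4, encoded beside Ccl3, had no called difference. It was at 15.03, 1.65 and 1.22 CPM in WT p210 and at 9.61, 8.11, 0.582 and 0.624 in KO p210. WT untransformed libraries were at 2.38, 3.49, 0.137 and 0.577 CPM and KO untransformed at 6.18, 4.55 and 1.12, overlapping both transformed groups. WT p210 replicate 1 held 84.0% of its group's Ccl4. The p210 difference was 1.86 ± 1.26 in WT (adjusted p = 0.262 in edgeR) and 0.26 ± 1.26 in KO (adjusted p = 0.891). Without WT p210 replicate 1 the WT difference was -0.21.

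Ccl2 in WT p210 was carried by 1 library. Replicate 1 was at 176 CPM, replicate 2 at 3.93 and replicate 3 at 24.0, and replicate 1 held 86.3% of the sum. The difference from WT untransformed was 2.76 ± 1.02 (6.79-fold, adjusted p = 0.0484 in edgeR), with overlapping groups. Without WT p210 replicate 1 it was 0.45 (adjusted p = 0.714), and without WT untransformed replicate 3, the highest of its group, it was 3.52 and still called. Leaving out WT untransformed replicates 1, 2 or 4, any KO untransformed library, or KO p210 replicates 2 or 4 also ended the call (adjusted p 0.0549 to 0.115), as did the cell line as a block (0.96, adjusted p = 0.632) and limma-voom (1.69, adjusted p = 0.255). So did the first code alone (3.72, adjusted p = 0.120), the second code alone (0.82, adjusted p = 0.638), and library size scaling, no low-count filter, the 2 groups alone, the code or the second run as a covariate (adjusted p 0.0524 to 0.134).

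In KO p210, Ccl2 was at 12.1, 7.06, 1.86 and 3.39 CPM, overlapping WT p210 (-3.49 ± 1.05, adjusted p = 0.0847 in edgeR). Without WT p210 replicate 2 that difference was -4.05 with an adjusted p of 0.0269, and DESeq2 also called it (adjusted p = 0.0108). It overlapped KO untransformed as well (1.19 ± 1.06, adjusted p = 0.411). The neighbouring genes Ccl7 and Ccl12, ligands of the Ccl2 receptor Ccr2, showed the same library as highest: WT p210 replicate 1 was at 87.0 CPM for Ccl7 and 12.5 CPM for Ccl12, and held 91.1% and 88.4% of their group sums. Ccl12 did not pass the low-count filter and was singled out after its values were seen.

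Ccl8 was read in WT p210 replicates 1 and 3 and almost nowhere else. Its counts were 277, 5 and 501 in WT p210 replicates 1 to 3 (8.69, 0.168 and 25.4 CPM) and 0, 0, 0 and 1 in KO p210. Untransformed libraries had 1, 1, 13 and 5 counts in WT and 9, 3 and 21 in KO, none above 0.413 CPM. The summed counts of WT p210 against KO p210, 783 against 1, gave a ratio of 1081.5 with a 95% counting interval from 194 to 42772, which covers counting error only. edgeR called Ccl8 lower in KO p210 (adjusted p = 0.00907), the call held without any single library (adjusted p up to 0.0373), and limma-voom did not make it (adjusted p = 0.250). It was also lost with the first code alone (adjusted p = 0.152) and with the second code alone (adjusted p = 0.111).

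Against WT untransformed, Ccl8 was called higher in WT p210 (6.34 ± 1.30, adjusted p = 0.00271 in edgeR) although replicate 2 lay inside the untransformed range. The difference was 4.96 without WT p210 replicate 3 and 7.41 without WT untransformed replicate 3, and both fits kept the call. limma-voom (adjusted p = 0.107) and the first code alone (adjusted p = 0.0778) did not make it. In KO, 33 counts in untransformed stood against 1 in p210, a ratio of 38.0 with a counting interval from 6.36 to 1546. That decrease did not pass (adjusted p = 0.0642 in edgeR) but passed with DESeq2 (adjusted p = 0.0114) and with the cell line as a block (adjusted p = 0.0316). The genotype difference in the p210 change did not pass in edgeR (adjusted p = 0.105), and passed in DESeq2 (adjusted p = 1.9e-05) and, in edgeR, without WT p210 replicate 2 (adjusted p = 0.0244).

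Ccl5, which draws T cells and monocytes, and Cxcl10 had no called difference. Ccl5 was at 2.42, 0.168 and 3.70 CPM in WT p210, 2.56, 1.93, 0.204 and 0.156 in KO p210, and 0 to 1.77 in the untransformed libraries. Its p210 differences were 1.73 ± 1.30 in WT and -0.01 ± 1.29 in KO, and its genotype difference in p210 was -0.80 ± 1.29, none of them called. Cxcl10 was at 1.94, 0.168 and 0.101 CPM in WT p210 and 0.157, 2.39, 0.116 and 0 in KO p210, so a single library held 87.8% of the WT p210 sum and another 89.8% of the KO p210 sum. The untransformed libraries lay between 0.351 and 0.980 CPM. The Cxcl10 differences were 0.46 ± 1.21 and -0.23 ± 1.22 for p210 in WT and KO, and -0.18 ± 1.22 between the transformed genotypes.

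Counted over the comparisons, p210 against untransformed called 6 of 9 members higher in WT, where 21.9% of all genes were higher and 17.6% lower, and 3 of 9 higher in KO, where the shares were 19.2% and 18%. No member was called lower in either. DESeq2 called the same number higher, 6 and 3, and also 1 lower in KO, and limma-voom called 3 and 1 higher. KO against WT in p210 called 1 of 9 lower, Ccl8, where 3.56% of all genes were lower and 0.882% higher, and DESeq2 called 2 and limma-voom none (1 at an unadjusted p under 0.05). Differences in Ccl3 (0.45 ± 0.98), Ccl4 (-0.34 ± 1.25) and Cxcl2 (0.52 ± 1.10) between the transformed genotypes were smaller than their standard errors. The test of whether genotype changed the p210 difference called none of the 9 members in edgeR (2 at an unadjusted p under 0.05, Ccl6 and Ccl8), 1 in DESeq2 and none in limma-voom, where 0.0345% of all genes were negative and 0% positive in edgeR. The p210 comparisons share their untransformed or transformed libraries with the genotype comparisons and are not independent of them.

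**Figure D3:**
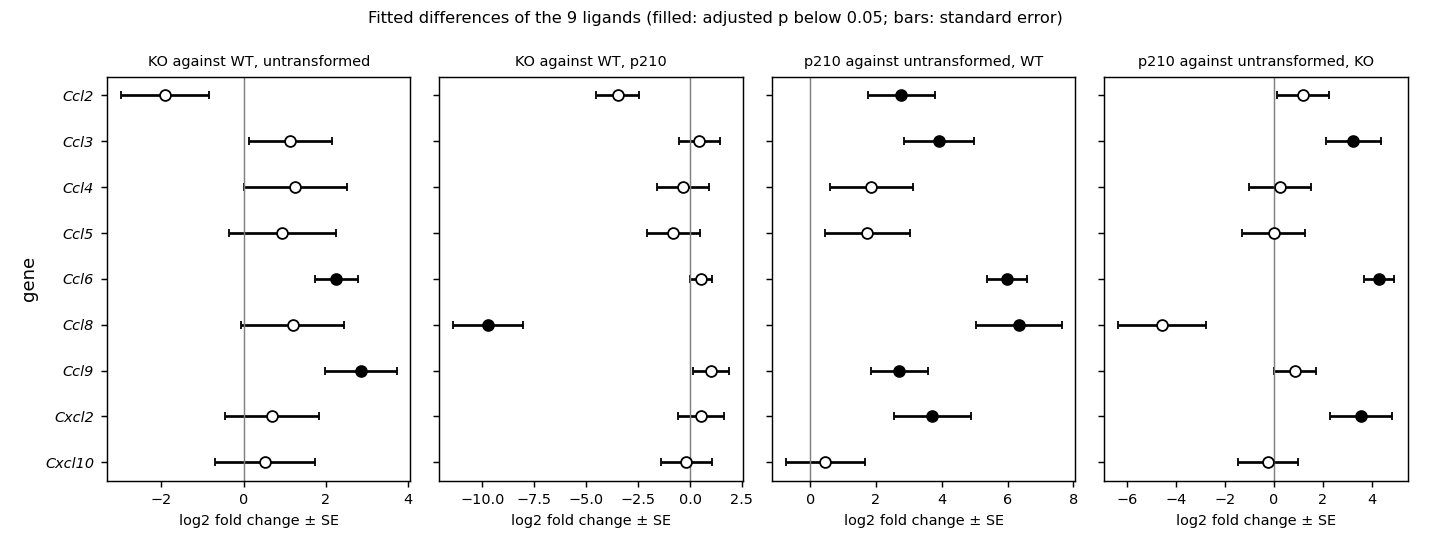
Fitted log2 fold changes (x axis) of the 9 ligand genes (y axis) in 4 comparisons, 1 panel each with its own scale, from edgeR over 14 libraries. Bars are standard errors and filled points have an adjusted p below 0.05. Ccl6 is filled in 3 panels, Ccl8 is the single filled point between the p210 genotypes, and Ccl5, Ccl4 and Cxcl10 are open throughout.

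Within groups, Ccl3, Ccl4 and Cxcl2 tended to vary together, except that WT p210 replicate 3 was the highest of its group for Ccl3 and not for Ccl4 or Cxcl2. After the group means were removed, Pearson's r of log2 CPM over the 14 libraries was 0.97 between Ccl4 and Cxcl2, 0.86 between Ccl3 and Ccl4, and 0.85 between Ccl3 and Cxcl2. Ccl5 joined them (0.82 with Ccl3). Ccl6 and Ccl9 had an r of 0.68 with each other, and Ccl9 had 0.74 with Ccl3. Ccl2 was closest to Ccl8 (0.61) and Ccl8 had -0.41 with Ccl6. Ccl3 and Cxcl10 had 0.31. These are descriptions over libraries that share code and cell line.

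**Figure D4:**
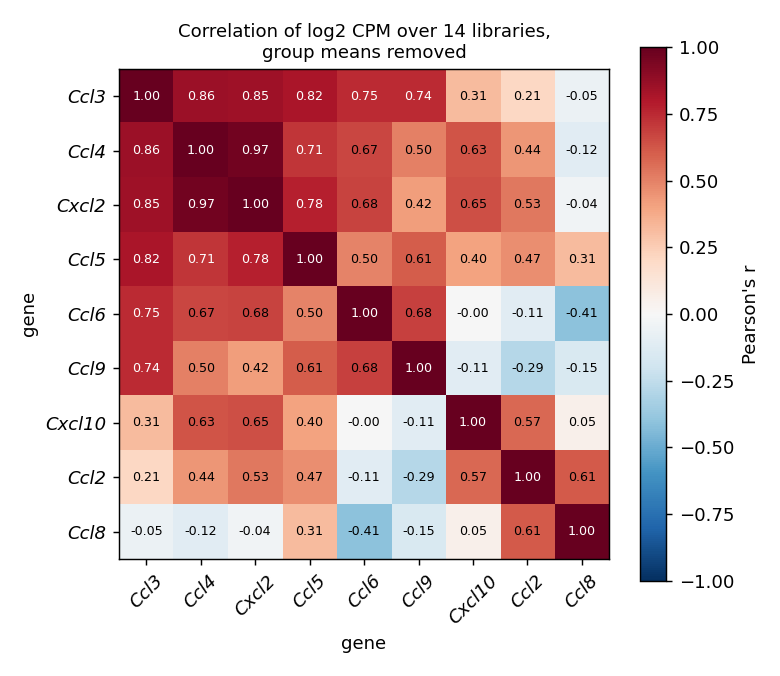
Pearson's r between pairs of ligand genes (both axes), from log2 CPM over 14 libraries after the mean of each group was subtracted, with red for positive and blue for negative values. Ccl3, Ccl4, Cxcl2 and Ccl5 form a block of values between 0.71 and 0.97, and Ccl8 is between -0.41 and 0.61 with the other members.

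The genes most like each member over the 14 libraries, without removing group means, were ranked by the same measure. Ccl7 came first for Ccl2 (r = 0.91), Bhlhe40 (0.95) and Ptgs2 (0.95) for Cxcl2, and Qsox2 (0.95) for Ccl3. For Ccl6 the first was Zdhhc12 (0.99), and for Ccl9 Ifngr2 (0.99), a subunit of the interferon-gamma receptor, and Anxa2 (0.98). Sec24d (0.91) led for Ccl4 and Mab21l2 (0.91) for Ccl8, while the closest gene to Cxcl10 was Ctbp2 (0.84). Each was picked for its high r among the genes tested, with group differences left in, so the size of r shows no particular link.

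The split within KO p210 ran along the number code. First-code libraries, replicates 1 and 2, were above second-code libraries, replicates 3 and 4, for Ccl2, Ccl3, Ccl4, Ccl5 and Cxcl2. Ccl6, Ccl8 and Ccl9 did not follow this order. How many of all genes did was not counted, and members that vary together are not separate observations. Replicate 2 is also the library whose label is in doubt. For Cxcl10 replicate 2 alone was high. The difference was 3.47 ± 0.63 for Ccl3 (adjusted p = 0.0703 in edgeR), 3.87 ± 1.01 for Ccl4 (0.142), 3.90 ± 0.87 for Cxcl2 (0.105) and 4.63 ± 0.97 for Cxcl3, another Cxcr2 ligand (0.0941), and none of these passed over all genes. This comparison was added after the library values were seen, so it is a description. In WT untransformed, Ccl3 and Ccl4 were also higher in both first-code libraries (2.60 ± 0.67 and 3.02 ± 1.00, adjusted p 0.158 and 0.240), as they were in KO untransformed (1.45 ± 0.77 and 2.25 ± 1.22, adjusted p = 1 for both). In WT p210, Ccl3 was highest in the second-code library.

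Some genes of the NF-kB feedback loop were higher in the same KO p210 libraries, of which replicate 2 has a label in doubt. Nfkbia was at 211, 199, 69.8 and 67.9 CPM in KO p210 replicates 1 to 4 (1.57 ± 0.11 between codes, adjusted p = 0.00333 in edgeR). Tnfaip3, which encodes the NF-kB inhibitor A20, was at 95.5, 53.7, 12.1 and 15.6 CPM (2.43 ± 0.29, adjusted p = 0.0223), Nfkbie, another inhibitor, at 43.0, 45.9, 13.99 and 12.2 (1.76 ± 0.14, adjusted p = 0.00415), and Nfkb2, a subunit, at 76.3, 79.7, 32.9 and 35.8 (1.18 ± 0.14, adjusted p = 0.0225). Those 4 were chosen after their values were seen and were among 25 genes called higher in the first code, 0.172% of those tested. Others of the NF-kB list varied in this. In KO p210 replicates 1 to 4, Relb was at 30.7, 29.8, 8.35 and 9.51 CPM and Nfkb1 at 252, 277, 236 and 225. Chuk, at 90.3, 93.5, 97.8 and 74.3 CPM, did not split by code. In WT p210 Nfkbia was at 45.7, 43.2 and 39.5 CPM, below every KO p210 library.

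**Figure D5:**
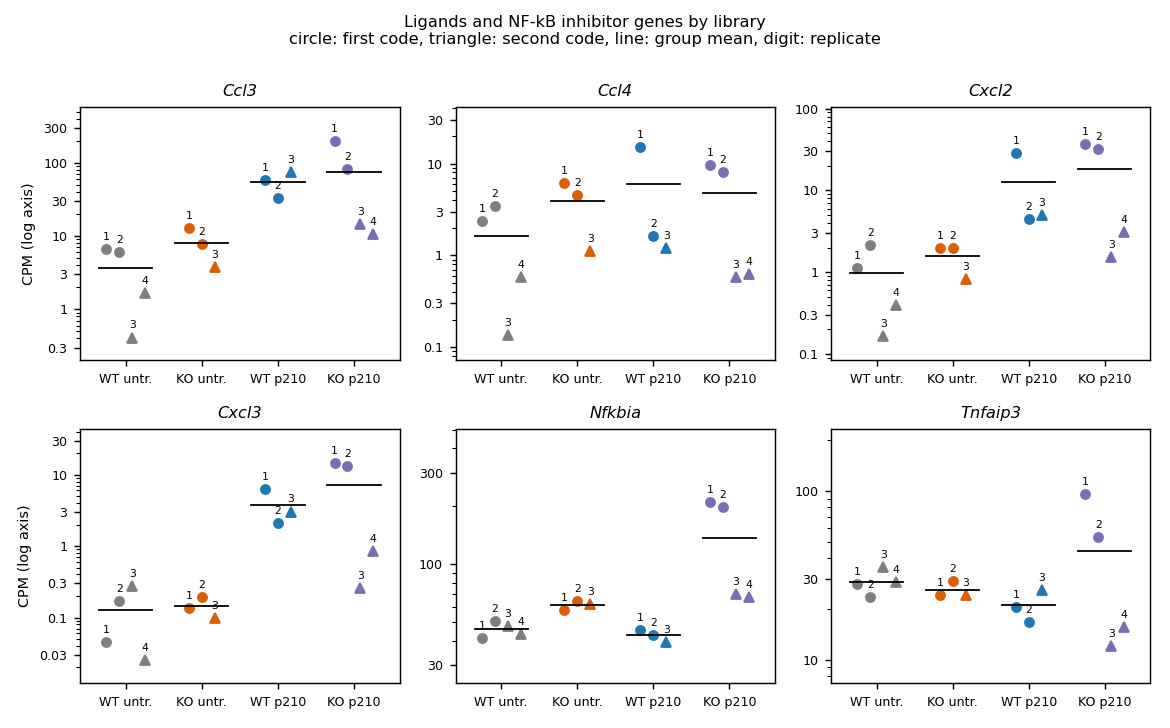
Level of Ccl3, Ccl4, Cxcl2, Cxcl3, Nfkbia and Tnfaip3 in each library, in CPM on a log axis, by group on the x axis. Circles are first-code and triangles second-code libraries, digits are replicate numbers and lines are group means. In KO p210 both circles lie above both triangles in all 6 panels, with Nfkbia at 211 and 199 against 69.8 and 67.9.

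Of the 15 NF-kB factors and inhibitors, 2 were called higher and none lower in KO p210 against WT p210. They were Nfkbia (1.68 ± 0.37, 3.20-fold, adjusted p = 0.0261 in edgeR) and Nfkbid (0.80 ± 0.16, adjusted p = 0.0153). Between the untransformed genotypes only Ikbkg, the regulatory subunit of the activating kinase, was called (0.26 ± 0.08, adjusted p = 0.0480). Over all genes, 0.882% were called higher between the p210 genotypes and 8.73% between the untransformed ones. Of the 15, p210 called 4 higher and 2 lower in WT, and 5 higher and 2 lower in KO, beside 21.9% and 17.6% of all genes in WT and 19.2% and 18% in KO. Bcl3, a nuclear cofactor, fell by 3.11 in WT and by 2.31 in KO on the log2 scale (adjusted p = 0.000521 and 0.00191), Rela, a main subunit, fell by 0.51 and 0.36, and Nfkb1 rose by 0.44 and 0.47.

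Receptors for the abundant members were read in the same libraries, which does not show that the same cells carry both. Ccr1, which binds Ccl3, Ccl6 and Ccl9, was at 26.9, 20.7, 4.17 and 16.8 CPM in WT untransformed and 81.7, 91.6 and 69.1 in KO untransformed (2.24 ± 0.44, 4.72-fold, adjusted p = 0.01004 in edgeR). It was at 139 to 263 CPM in WT p210 and 247 to 286 in KO p210, above every untransformed library, and the p210 rise was called in WT (3.65 ± 0.45) and in KO (1.72 ± 0.45). Ccr2, the receptor of Ccl2, was higher in KO untransformed (1.55 ± 0.41, adjusted p = 0.0292) and in WT p210 (1.97 ± 0.41, adjusted p = 0.00316) against WT untransformed. Cxcr2, the receptor of Cxcl2, reached 26.7 to 76.2 CPM in KO p210 without passing against WT p210 (2.01 ± 0.81, adjusted p = 0.191). Cxcr3, the receptor of Cxcl10, was at most 1.91 CPM.

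Of the 14 receptor genes tested, 2 were called higher and none lower in KO untransformed, and none higher and 2 lower in KO p210. Those lower in KO p210 were Cxcr5 (-3.30 ± 0.79, adjusted p = 0.0360 in edgeR), with overlapping groups, and Ackr1, a decoy receptor (adjusted p = 0.00800), which had 1116, 409 and 13 counts in WT p210 and 6, 1, 2 and 3 in KO p210. With p210, 5 were higher and none lower in WT, and 2 were higher and 2 lower in KO. The shares of all genes called higher and lower were 8.73% and 6.5% between the untransformed genotypes, 0.882% and 3.56% between the p210 genotypes, 21.9% and 17.6% for p210 in WT, and 19.2% and 18% for p210 in KO. The median receptor difference was 0.68 between the untransformed genotypes and 1.56 for p210 in WT, beside -0.02 and 0.02 for all genes.

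The chemokine ligands outside the 9 members were chosen by family and not by level. Of 13 tested, KO untransformed against WT called 1 higher, Ccl22 (3.79 ± 1.12, adjusted p = 0.0424 in edgeR), and 2 lower, Pf4 (-1.30 ± 0.40, adjusted p = 0.0475) and Ccl17 (-2.11 ± 0.65, adjusted p = 0.0480), beside 8.73% and 6.5% of all genes. None passed between the transformed genotypes in edgeR (3 at an unadjusted p under 0.05, 2 in DESeq2 and none in limma-voom). In WT, p210 called 3 higher, Cxcl3 (4.79 ± 1.21, adjusted p = 0.00883), Ccl24 (3.61 ± 0.92, adjusted p = 0.00919) and Ccl7 (4.57 ± 1.31, adjusted p = 0.0163), beside 21.9% of all genes higher. In KO, Cxcl3 (5.63 ± 1.40, adjusted p = 0.00857), Ccl24 (4.15 ± 0.99, adjusted p = 0.00675) and Ccl25 (0.42 ± 0.16, adjusted p = 0.0497) rose, and Cxcl16, a transmembrane ligand, fell by 4.71 (adjusted p = 0.00401). Cxcl12, the classic niche ligand, fell too (adjusted p = 0.00719), with 11, 14 and 61 counts in KO untransformed and 0 in each KO p210 library, so that replicate 3 held 53.3% of the KO untransformed CPM. In that comparison 19.2% of all genes were higher and 18% lower.

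Interferon signalling genes, upstream of Cxcl10, were listed beside it. Of 18, KO untransformed against WT called 8 higher and none lower, beside 8.73% and 6.5% of all genes. They were led by Ifnar1 (0.84 ± 0.14, adjusted p = 0.00656 in edgeR), Ifngr1 (1.499 ± 0.297, adjusted p = 0.0108) and Stat2 (0.80 ± 0.17, adjusted p = 0.0123). Cxcl10 itself was below 1 CPM in all 7 untransformed libraries. In KO p210 against WT p210, Usp18 alone was called, beside 3.56% of all genes lower and 0.882% higher, and was lower (-2.05 ± 0.36, adjusted p = 0.00887). With p210, 8 were higher and 2 lower in WT (21.9% and 17.6% of all genes), and 3 higher and 5 lower in KO (19.2% and 18%). Among them was Socs1, a feedback inhibitor of cytokine signalling, up by 3.65 ± 0.45 and 3.30 ± 0.49.

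Marker sums that moved with the transformed groups were also read. The 12 mast cell and basophil markers summed to 4497 to 14134 CPM in WT p210 and 7360 to 11036 in KO p210, against 1332 to 7310 in WT untransformed and 2822 to 3119 in KO untransformed. Of the 11 tested, p210 called 4 higher and 3 lower in WT, and 4 higher and none lower in KO. The shares of all genes were 21.9% and 17.6% in WT, and 19.2% and 18% in KO. Cpa3 and Mcpt8 held most of the p210 sums, at 5603 and 6619 CPM of the 14134 in WT p210 replicate 2. Fcer1a went the other way in KO without a call, at 607 to 851 CPM in KO untransformed and 129 to 478 in KO p210. Monocyte and macrophage markers summed to 2847 to 4916 CPM in WT p210 and 5015 to 10231 in KO p210, so that all 3 WT p210 libraries and 3 of the 4 KO p210 libraries had more Ccl6 and a lower monocyte sum than any KO untransformed library. Lyz2 held most of the KO sums, at 7474 to 11694 CPM in KO untransformed and 3765 to 8505 in KO p210. Adgre1 was at 189 to 370 CPM in KO untransformed, 155 to 554 in WT p210 and 236 to 648 in KO p210. Of the 14 markers, p210 called 3 higher and none lower in WT, and none higher and 3 lower in KO, beside the same shares of all genes. The part of these markers in the Ccl3, Ccl6 and Cxcl2 differences was not tested.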

How the data were processed

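Per the labels' protocols, RNA of the 14 samples was extracted with an RNeasy kit, and the SENSE mRNA-Seq libraries were sequenced from 1 end over 50 bp. Reads were trimmed with Trimmomatic and aligned with STAR to GRCm38, per the submitters' processing notes, with versions not given in the sources used here. For each gene, the deposited count came from featureCounts 1.5.1, counting exons on the reverse strand with GENCODE M13 genes and no multi-mapping option, per the file headers. The deposited TPM column has no name and was identified from its values: TPM recomputed from the counts differed by at most 0.049, within a tolerance of 0.05.

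Counts were analysed as deposited with edgeR 4.0.16 (R 4.3.3): filterByExpr (minimum count 10, minimum total 15) kept 14512 genes, with TMM factors, 1 mean per group over 14 libraries, the robust quasi-likelihood test and p-values adjusted by Benjamini-Hochberg over those genes, with a call below 0.05. An SE is of the log2 fold change, and was derived as its absolute value divided by the square root of the quasi-likelihood F statistic. Levels are CPM on TMM-scaled totals, and correlations use log2(CPM + 0.1). DESeq2 1.42.0, limma-voom (limma 3.58.1), other scalings and filters, single libraries left out, codes, the second run and replicate blocks were alternatives. Only the edgeR comparison of KO with WT untransformed was tested on simulated counts.

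The members and lists were chosen with earlier results of these data known. Named from each list were the called genes ranked first by adjusted p (up to 4 per comparison), up to 2 abundant genes without a call, and for each member the most alike genes. A library carried a group where it held over 50% of the summed CPM and had at least 1 CPM. Nothing in the labels says that replicates were separate derivations, so p-values may measure spread between cultures and not between derivations. Libraries of 1 group differed by more than counting error, with a chi-square per degree of freedom of 15.3 to 172. Code and letter in the descriptions were read as marking 8 cell lines, 6 of them in both states. Same-line deviations from group means correlated at 0.159, 0.113 and 0.123 in WT and 0.0635, 0.0833 and 0.0102 in KO. Of the untransformed libraries with a partner, only KO untransformed replicate 1 had it as the closest library. The values thus do not settle the reading of the lines, on which the cell line block rests. Counting intervals are exact at 95%. Some genes that the naming rule selects are not reported here.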

Additional observations from a re-analysis of the deposited data

Results flagged for a closer look

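In groups of 4 libraries, the end value was compared with its nearest neighbour for each of the 9 members and the 13 other ligands tested, 44 groups in all, of which 4 held a library far from the others. Cxcl12 in KO p210, with 0 counts in each library, is in the 44 but had no range to compare. Chance alone flags about 1 in 20 groups where values are normally distributed, which was not checked for these CPM, so the rate may differ here. Ccl8 was at 0.039 CPM in KO p210 replicate 4, a single read, with 0 counts in the other 3 libraries of the group. Cxcl10 was at 2.39 CPM in the library labelled KO p210 replicate 2, with 0.157 CPM in the nearest library. WT untransformed replicate 3 was at 3.92 CPM for Ccl7, with 0.539 in the nearest library. The same library was at 9.41 CPM for Cxcl5, a neutrophil-drawing ligand, with 0.0898 CPM in the nearest. It was also the library with the mast cell protease genes and, at 6035 CPM against 2238 to 4598 in the other 3, the highest sum of megakaryocyte and erythroid markers in its group, whose part in these values was not tested.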

How the results depend on the processing

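Of 39 member results, 12 were called, and their 330 alternative values all kept their direction, while 89 lost the call. Of 729 alternative values of results not called, 46 changed sign and 9 gained a call. Values that changed sign came from results with no call in edgeR, and the cause was not tested. Reads of Ccl8, Ccl5 and Cxcl10 were few, which limits their precision.

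Counts of genes called over all genes were 2211 for KO against WT untransformed, 645 for KO against WT p210, 5727 and 5395 for p210 in WT and KO, and 5 for the interaction. With single libraries left out they ran from 181 (without KO untransformed replicate 2) to 2643, from 285 (without WT p210 replicate 1) to 736, and, for the interaction, from 0 to 46. DESeq2 gave 3429, 1405 and 397 for the genotype comparisons and the interaction, and limma-voom gave 411 between the p210 genotypes. KO against WT untransformed gave 1273 with no low-count filter, 3399 from the 2 groups alone, 920 without both libraries in doubt, 435 from the first code alone, 0 from the second code alone and 1042 with the second run as a covariate. KO against WT p210 gave 5 from the 2 groups alone, 275 without both libraries in doubt, 4 from the second code alone and 421 with the second run. For p210 in WT the counts were 3725 from the first code, 1566 from the second code and 3652 with the second run, and for p210 in KO 73 from the second code. The interaction gave 3 with library size scaling, 32 from the first code, and 0 without both libraries in doubt, with the code or second run as a covariate and from the second code. Scaling to library size moved the median of all genes to -0.12, -0.10, -0.10 and -0.12 in the 4 comparisons. It changed the genes called higher and lower from 1267 and 944 to 915 and 1657, from 128 and 517 to 69 and 722, from 3173 and 2554 to 2516 and 3471, and from 2790 and 2605 to 2093 and 3466, whereas each called member kept its direction.

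Of the 13 other ligands, 3 were called in KO against WT untransformed, 0 between the p210 genotypes, and 3 and 5 for p210 in WT and KO. Leaving out single libraries gave 0 to 3, 0 to 3 and 3 to 6 for the first 3 of these. The first count was 1 at a minimum count of 30 or from the 2 groups alone, and 0 with no filter, without both libraries in doubt, from either code alone and with the second run. The second was 2 in DESeq2 and 1 with library size scaling or the first code alone. The third was 6 in DESeq2, 0 in limma-voom and 5 with no filter, and the fourth was 0 from the second code alone.

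Log2 differences that changed sign between the p210 genotypes were Ccl3 (-0.51) and Cxcl2 (-0.36) in limma-voom, Ccl3 (-0.37) with the code as a covariate, Ccl4 (0.080), Ccl5 (0.78) and Cxcl10 (0.29) from the first code, Ccl3 (-2.57), Ccl9 (-0.15) and Cxcl2 (-1.11) from the second code, and Ccl4 (0.13) with the second run. For Ccl5 in untransformed cells the first code gave -0.28. For p210 in WT, Cxcl10 was -0.47 in limma-voom, -0.28 with the code and -2.30 from the second code. For p210 in KO, Ccl4 was -0.36 in limma-voom, -0.14 without both libraries in doubt and -0.89 from the second code, Ccl5 was 6e-04 in DESeq2 and 1.16 from the first code, Cxcl10 was 0.60 from the first code, and Ccl2 was -0.081 from the second code. With single libraries left out, the p210 genotype differences ran from -0.63 to 0.81 for Ccl3, -0.95 to 1.70 for Ccl4, -0.062 to 1.96 for Cxcl2 and -3.03 to 2.24 for Cxcl10. Those for p210 ran from -0.21 to 2.56 (Ccl4) and -1.975 to 0.93 (Cxcl10) in WT, and from -0.34 to 0.75 (Ccl4), -0.67 to 0.36 (Ccl5) and -3.08 to 0.19 (Cxcl10) in KO.

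The replicate block by number gave 366 genes between the p210 genotypes, 0 for the interaction and 1 other ligand between the untransformed genotypes, and turned Cxcl10 to -0.015 there, Ccl3 to -0.17 between the p210 genotypes, and, for p210, Cxcl10 to -0.26 in WT and Ccl5 to 0.085 in KO. The replicate block by cell line gave 3586 genes for p210 in KO, 0 for the interaction, and 1 and 2 other ligands for p210 in WT and KO, and turned Cxcl10 to -0.69 for p210 in WT. By number, it also ended the calls of Ccl9 between the untransformed genotypes (2.85, adjusted p = 0.0902 in edgeR) and of Ccl2 (1.74, 0.272) and Ccl9 (2.80, 0.0642) for p210 in WT.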

Other observations

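Pf4 and Ppbp, ligands stored in platelet granules, showed the other side of the composition. Pf4 was at 585, 718, 1735 and 1271 CPM in WT untransformed, 585, 331 and 398 in KO untransformed, 935, 1147 and 788 in WT p210, and 624, 305, 735 and 674 in KO p210. Each p210 KO library was below each p210 WT library, without a call (-0.71 ± 0.38, adjusted p = 0.329 in edgeR). Ppbp reached 141 CPM in WT untransformed replicate 3. The megakaryocyte and erythroid markers include Pf4 and Ppbp themselves. Of 10 such markers tested, 4 were called lower and none higher in KO against WT in each state, where 6.5% (untransformed) and 3.56% (p210) of all genes were lower. Pf4 is among the 4 in the untransformed state.

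Cxcl16 was at 13.5, 12.7, 2.09 and 2.33 CPM in WT untransformed, higher in both first-code libraries, and at 29.6, 46.0 and 21.3 in KO untransformed. It was at 1.29, 0.504 and 8.98 CPM in WT p210 and 1.46, 0.347, 1.86 and 1.25 in KO p210. It fell with p210 in KO without overlap, while Ccl6 and Ccl3 rose in that comparison.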
